A study of Mus musculus with 9 samples.

Results

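The EGF family ligands are 7 genes, Hbegf, Areg, Ereg, Tgfa, Btc, Epgn and Nrg1, followed here through every probe set that the platform annotation gives to 1 of these symbols and to no other. That rule found 10 of the 45101 probe sets of the array, and they stand for 6 of the 7 genes. Tgfa has 3 of them, Hbegf 2, Btc 2, and Ereg, Epgn and Nrg1 have 1 each. No probe set carries Areg as its 1 symbol, so amphiregulin was not analysed here.

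RNA was measured on 9 Affymetrix arrays from NIH 3T3 cells, an established line of mouse fibroblasts, in 3 groups of 3 numbered 1, 3 and 7. All cells were serum-starved and all, the controls included, received the translation blocker cycloheximide at 3 µg/ml for 2 h, so each difference between groups was measured in its presence. The control group received no actin drug, the second group cytochalasin D at 2 µM for 90 min, and the third group latrunculin B at 5 µM together with cytochalasin D at 2 µM, also for 90 min. For the third group the sample titles give only latrunculin B, but both drugs stand in the agent label and in the series design, so it is called the double-drug group. Per the series design, the arrays of a group are independent biological replicates. The series title names a switch run by monomeric (G-) actin. As background, both drugs take actin out of filaments, but cytochalasin D frees the transcriptional coactivator MRTF from G-actin whereas latrunculin leaves it bound, and free MRTF acts with serum response factor (SRF) on target genes.

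EGF family ligands are made as membrane proteins whose outer part is cut off by sheddases, chiefly ADAM proteases, and the released part binds receptors of the ErbB family on the same or a neighbouring cell. Heparin-binding EGF-like growth factor (Hbegf), epiregulin (Ereg) and amphiregulin (Areg) are known as genes that cells switch on quickly after growth factors or stress. Betacellulin (Btc), transforming growth factor alpha (Tgfa), epigen (Epgn) and neuregulin 1 (Nrg1) complete the set, and Nrg1 binds ErbB3 and ErbB4, whereas Tgfa and Epgn bind the EGF receptor.

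In the RefSeq gene table of GRCm38.p6, Epgn, Ereg, Areg and Btc are consecutive protein-coding genes on chromosome 5. The 250 bases before the start of Epgn and of Btc are shown because these genes flank Ereg and Areg and were not above the level of silent genes. Both come from RefSeq (GRCm38.p6) and are written 5′ to 3′ on the gene's strand, with TATAAA in capitals. The Epgn window is chr5:91027267-91027516 on the plus strand and the Btc window is chr5:91402995-91403244 on the minus strand.
Epgn: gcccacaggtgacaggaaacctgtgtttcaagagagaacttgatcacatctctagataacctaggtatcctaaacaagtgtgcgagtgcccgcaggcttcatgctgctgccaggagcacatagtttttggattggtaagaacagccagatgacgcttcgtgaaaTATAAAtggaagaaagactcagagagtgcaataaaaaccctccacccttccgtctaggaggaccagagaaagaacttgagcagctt
Btc: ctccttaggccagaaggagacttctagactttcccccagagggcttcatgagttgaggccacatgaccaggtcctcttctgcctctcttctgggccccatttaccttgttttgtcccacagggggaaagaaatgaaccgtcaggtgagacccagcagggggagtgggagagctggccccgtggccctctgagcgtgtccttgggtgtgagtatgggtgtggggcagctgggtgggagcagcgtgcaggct
Windows of Areg and Tgfa were searched as well, and those of Ereg, Hbegf and Nrg1 were not used here. The CArG box, the motif of SRF, was in 0 of the 4 windows on either strand, against 1.47% of 32851 promoter windows of the same length. TGANTCA, the AP-1 motif, was in 0 of the 4 as well, against 6.75% of windows. TGACGTCA, the cyclic AMP response element, was in the Areg window, against 1.55% of windows. TATAAA was in the Epgn and Areg windows, against 12.4% of windows. None of these 4 motifs was in the Btc or Tgfa window.

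To state which ligands were expressed, each probe set was set against 69 probe sets of 37 genes that are restricted to other tissues. Its intensity had to exceed the 95th percentile of those probe sets on all 3 arrays of a group, a level that lay between 20.8 and 29.5. By this rule 3 of the 10 ligand probe sets were expressed, both of Hbegf and the 1 of Ereg, beside 37.3% of all probe sets. Each of the 3 was above that level on all 9 arrays, controls included. The assumed-silent probe sets were not all dim: Krt10 lay between 137 and 210, Cela1 between 66.8 and 124, Lor between 38.6 and 42.4 and Syn1 between 27.5 and 51.2, above the level on every array. The Ereg probe set lay between the 81.2nd and 92.6th percentile of its array.

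Nrg1 lay at the edge of that level. Its intensities were 27.5, 21.4 and 16.6 in control replicates 1, 3 and 7, then 22.0, 23.5 and 20.3 with cytochalasin D, and 25.6, 22.1 and 22.0 in the double-drug group. It exceeded the level on 3 of the 9 arrays, those numbered 1, and on all 3 arrays of no group. The groups overlapped throughout.

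Btc, Tgfa and Epgn were under the silent-gene level on all 9 arrays in each of their 6 probe sets. The brighter Btc probe set lay between 8.13 and 9.75 on the 9 arrays. The dimmer Btc probe set lay between 4.65 and 5.02 on 8 arrays and at 9.34 in double-drug replicate 7. The 3 Tgfa probe sets lay at 3.89 to 3.94, 5.94 to 6.08 and 5.77 to 6.53, and Epgn lay at 4.03 to 4.12. A looser rule, the 40th percentile of all probe sets of the array on all 3 arrays of a group, counted 5 probe sets of 4 genes as expressed, adding Nrg1 and Btc. It passed 59.7% of all probe sets.

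**Figure D1:**
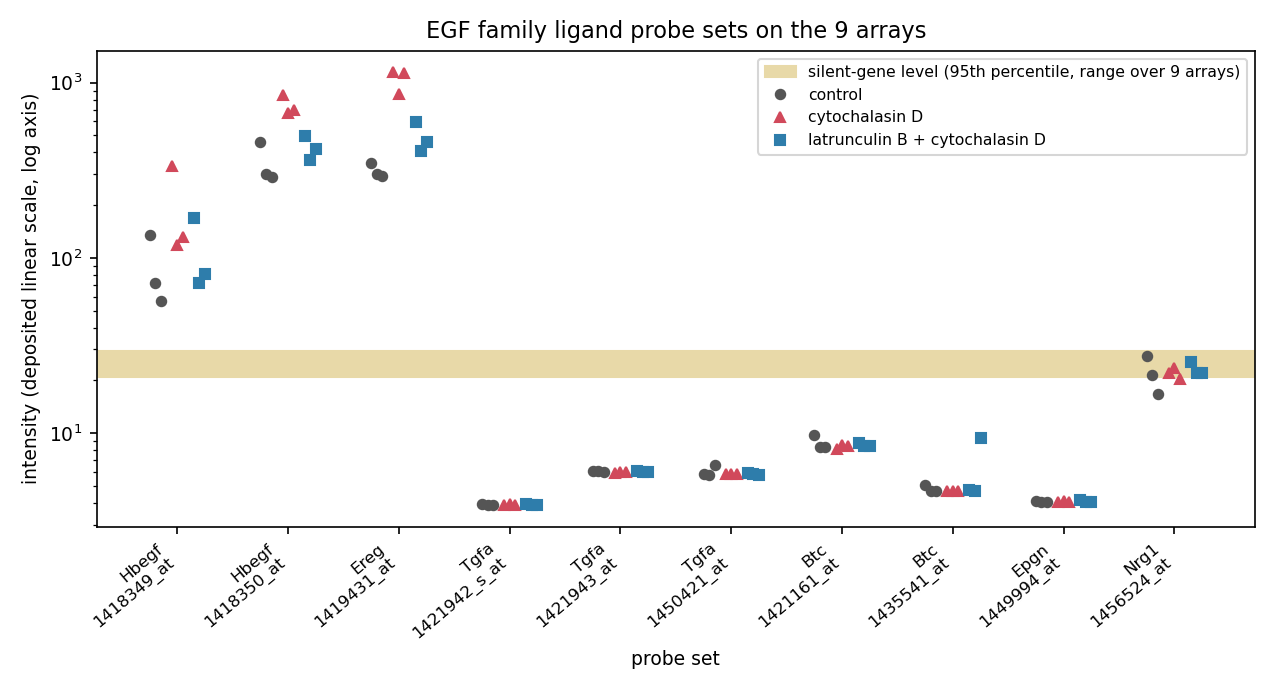
Intensity (deposited linear scale, log axis) of the 10 ligand probe sets on the 9 arrays, with 1 point per array and colour and shape by group. The band is the range over arrays of the silent-gene level, 20.8 to 29.5; Ereg and Hbegf lie above it in every group, Nrg1 lies in or near it, and Btc, Tgfa and Epgn lie under it.

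Ereg, which encodes a ligand of the EGF receptor and ErbB4, was higher after cytochalasin D. Its intensities were 348, 301 and 294 in control replicates 1, 3 and 7. They were 1144, 863 and 1129 with cytochalasin D, and 595, 407 and 459 in the double-drug group. All 3 cytochalasin D arrays were above all others, and all 3 double-drug arrays were above all controls. The means were 314 ± 29.6 in controls, 1045 ± 158 with cytochalasin D and 487 ± 97.4 in the double-drug group (SD, n = 3).

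The ratio of means of cytochalasin D over control was 3.33 for Ereg. On the log2(intensity + 16) scale, which makes changes of dim probe sets smaller, Ereg rose by 1.68 (SE 0.17, 95% interval 1.28 to 2.07; limma, adjusted p = 0.0053). It stood at rank 92 from the top of the 27010 probe sets tested. Array by array with the same number, cytochalasin D over control gave 3.29, 2.87 and 3.85, so the increase was present in 3 of 3. In bulk RNA, fewer cells of a type and less RNA per cell cannot be told apart, nor can more cells and more RNA per cell.

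Ereg in the double-drug group was 1.55 times control by the ratio of means. The difference was 0.59 on the log2 scale (95% interval 0.20 to 0.99) and did not pass the test (limma, adjusted p = 0.533, or 0.113 with the replicate number as a block). The groups did not overlap, and the 3 same-number ratios were 1.71, 1.35 and 1.56. Cytochalasin D alone gave 2.15 times the double-drug mean, a difference of 1.08 (95% interval 0.69 to 1.48). This missed the threshold in limma (adjusted p = 0.0981) and passed with the replicate number as a block (adjusted p = 0.0413), where same-numbered arrays of these 2 groups deviated together. The same-number ratios were 1.92, 2.12 and 2.46.

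Hbegf, whose product binds the EGF receptor and ErbB4 as well as heparan sulphate, has 2 probe sets. The brighter had intensities of 459, 302 and 290 in controls 1, 3 and 7. It had 850, 669 and 700 with cytochalasin D and 493, 363 and 418 in the double-drug group. The cytochalasin D arrays were above every other array, while double-drug arrays and controls overlapped. The means were 350 ± 94.6, 740 ± 96.6 and 425 ± 65.5 (SD, n = 3).

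For this Hbegf probe set the ratio of means of cytochalasin D over control was 2.11, and the log2 difference was 1.07 (SE 0.20, 95% interval 0.60 to 1.54). It did not pass the test over all probe sets (limma, adjusted p = 0.0618), although it ranked 223 from the top of the 27010. The adjusted p was 0.0211 without control replicate 1, the highest of the controls. This was the only 1 of the 9 arrays whose removal gave a call, and the adjusted p reached 0.207 with another left out. Against the double-drug group, cytochalasin D alone was 1.74 times as high, a log2 difference of 0.78 (95% interval 0.31 to 1.25; limma, adjusted p = 0.489). With the replicate number as a block it missed the threshold too (limma, adjusted p = 0.0596). The same-number ratios were 1.72, 1.84 and 1.67. The double-drug group against control differed by 0.29 (95% interval -0.19 to 0.76), which did not pass the test.

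The dimmer Hbegf probe set had intensities of 135, 71.6 and 56.9 in controls 1, 3 and 7. It had 335, 118 and 131 with cytochalasin D and 169, 72.1 and 80.5 in the double-drug group. Replicate 1 was the highest array of each group, and control replicate 1 was above cytochalasin D replicates 3 and 7, so the groups overlapped. The means were 87.8 ± 41.5, 195 ± 122 and 107 ± 53.8 (SD, n = 3).

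The ratio of means of this probe set, 2.22, was near that of the brighter one, but its log2 difference of 0.95 had an interval of -0.21 to 2.11 and did not pass the test (limma, adjusted p = 0.632). Within the same number the ratios were 2.48, 1.65 and 2.31, above 1 in 3 of 3. For the brighter probe set they were 1.85, 2.22 and 2.42, also above 1 in 3 of 3. The 2 Hbegf probe sets thus had like ratios and different spread between replicates, and neither was called in limma without the replicate block. With the replicate number as a block both were called (adjusted p = 0.00796 for the brighter and 0.0274 for the dimmer), where 3.87% of all probe sets were.

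**Figure D2:**
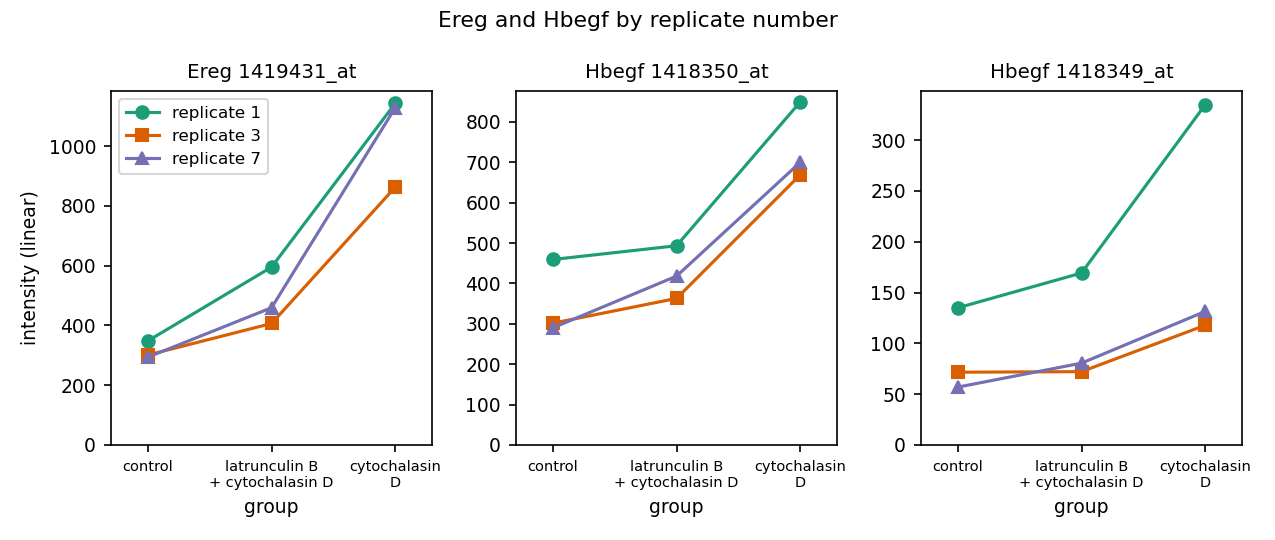
Intensity (linear) of Ereg and of both Hbegf probe sets in control, the double-drug group and cytochalasin D, with 1 line for each replicate number; the lines join arrays that share a number. In each line the cytochalasin D array is the highest, and in the dimmer Hbegf probe set replicate 1 stands above the other numbers in every group.

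Nrg1 and Btc did not pass the test in any comparison. For Nrg1 the means were 21.9 ± 5.47, 21.9 ± 1.56 and 23.2 ± 2.04 in control, cytochalasin D and the double-drug group (SD, n = 3). Its log2 difference of cytochalasin D against control was 0.01, with a 95% interval of -0.23 to 0.25. For the brighter Btc probe set the means were 8.81 ± 0.81, 8.36 ± 0.22 and 8.57 ± 0.18 (SD, n = 3), and the log2 difference was -0.03 with an interval of -0.08 to 0.03. At intensities near background such an interval bounds the signal of the probe set rather than the RNA.

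Of the 10 ligand probe sets, 5 (of Ereg, Hbegf, Nrg1 and Btc) passed the filter on dim values and were tested. After cytochalasin D against control, 1 of the 5 was called higher and 0 lower, where 1.57% of all probe sets tested were called. With the replicate block 3 were called higher, where 3.87% of all were called. Groups did not overlap in 2 of the 5, against 11.5% of all probe sets. The median log2 difference of the 5 was 0.95, the value of the dimmer Hbegf probe set, beside -0.001 over all probe sets. With 1 probe set per gene the median over the 4 tested genes was 0.54. Since a filter on dim values keeps a probe set that is high in 1 group, these counts describe the tested probe sets and not the family.

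Of the 5, 0 were called in the double-drug group against control, with the replicate block too, where 0.111% of all probe sets were called by limma and 0.455% with the block. At an unadjusted p under 0.05, 1 of the 5, Ereg, passed, beside 721 higher and 704 lower probe sets over the array, 5.28% of all tested. Groups did not overlap in 1 of the 5, which was Ereg, against 8.08% of all. The median log2 difference of the 5 was 0.24, or 0.17 with 1 probe set per gene, beside 0.003 over all.

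Cytochalasin D against the double-drug group gave 0 calls among the 5 in limma, where 0.259% of all probe sets were called, and 1 call, Ereg, with the replicate block, where 0.367% were. At an unadjusted p under 0.05, 2 of the 5 passed, beside 667 higher and 474 lower probe sets over the array, 4.22% of all tested. Groups did not overlap in 2 of the 5, Ereg and the brighter Hbegf probe set, against 6.26% of all. The 3 comparisons share groups, so their values are given side by side and not as separate evidence.

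**Figure D3:**
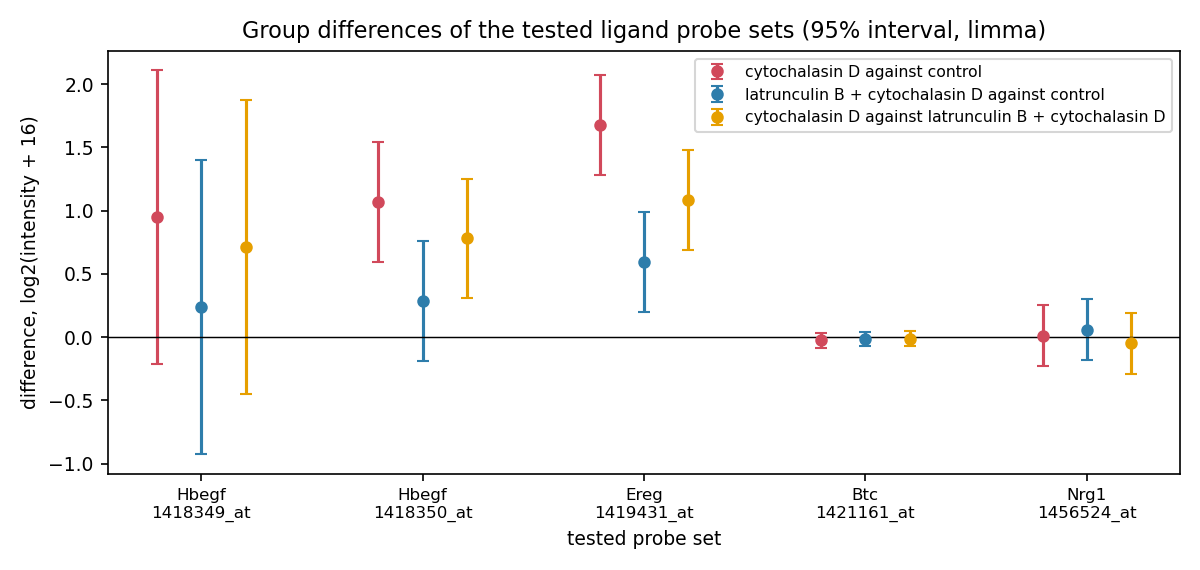
Difference between groups on the log2(intensity + 16) scale for the 5 tested ligand probe sets in the 3 comparisons, with points for the limma estimate and bars for its 95% interval. Ereg and the brighter Hbegf probe set lie above 0 with both intervals that involve cytochalasin D alone, while Nrg1 and Btc lie close to 0.

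**Figure D4:**
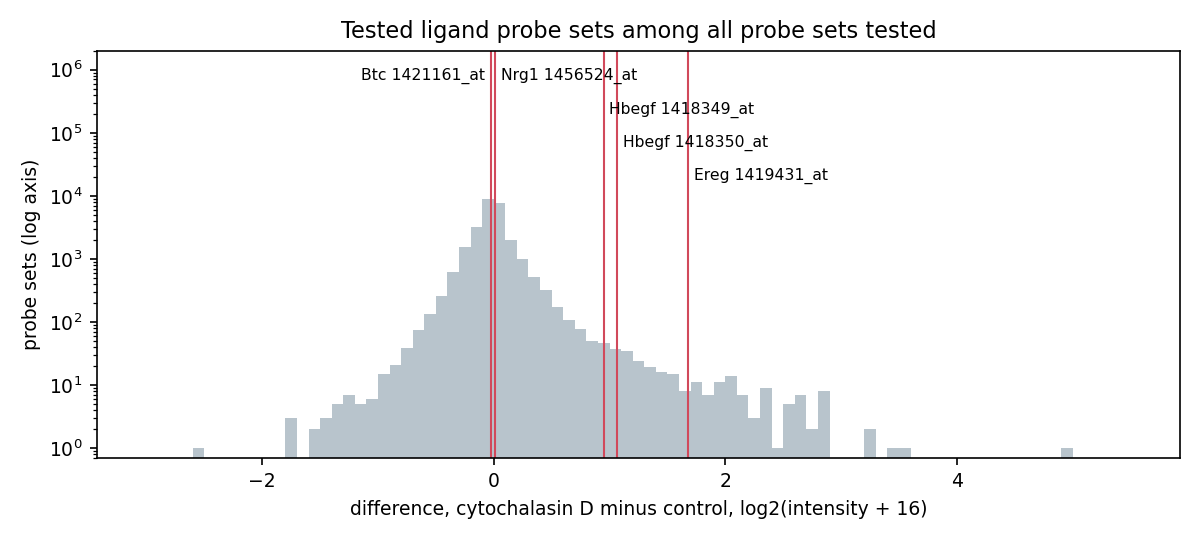
Number of probe sets (log axis) by their log2(intensity + 16) difference of cytochalasin D minus control, over all 27010 probe sets tested, with lines at the 5 ligand probe sets. Ereg at 1.68 and Hbegf at 1.07 and 0.95 lie in the upper tail, while Nrg1 and Btc lie at the centre.

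The genes beside Ereg on chromosome 5 were compared on the same arrays. Epgn stayed within 4.03 to 4.12 and was not tested, and Btc was described above. Mthfd2l, on the far side of Epgn, lay between 286 and 366 on the 9 arrays and was not called. Parm1, beyond Btc, lay between 4.58 and 4.70.

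Over the 9 arrays, the 3 genes whose log2(intensity + 16) followed Ereg most closely, among 12650 genes compared, were Dcun1d3 (Pearson r = 0.98), Zmat3 (r = 0.98) and Itga5 (r = 0.97). All 3 were called in cytochalasin D against control. The brighter Hbegf probe set stood at rank 14 in the same order, with r = 0.95, and the dimmer at rank 348, with r = 0.74. Nrg1 had r = 0.10. These are descriptions over arrays that share the 3 groups, so a gene whose levels order the groups as Ereg does has a high r.

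The 4 receptors of these ligands gave 0 calls in limma in any comparison, and 1, Erbb2, had an unadjusted p under 0.05, in cytochalasin D against control, where 10.2% of all probe sets did. Egfr, the EGF receptor, had means of 93.4 ± 14.5, 98.4 ± 9.51 and 92.1 ± 8.83 in control, cytochalasin D and the double-drug group (SD, n = 3), a log2 difference of 0.07 for cytochalasin D against control (95% interval -0.20 to 0.34). Erbb2, the co-receptor without a known ligand, had means of 119 ± 6.79, 95.4 ± 15.0 and 108 ± 6.99, and did not pass the test (limma, adjusted p = 0.384). Both were above the silent-gene level, whereas Erbb3 and Erbb4, the neuregulin receptors, were not in any group. Of the 4 other EGF family ligands, Egf, Nrg2, Nrg3 and Nrg4, 0 were above that level and 0 were called.

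Of 11 sheddases and their carriers, 7 were above the silent-gene level. In limma without the replicate block 0 were called and 0 had an unadjusted p under 0.05. With the replicate block the carrier Rhbdf1 was called lower after cytochalasin D against control, where 3.87% of all probe sets were called. Its log2 difference was -0.25 (limma with block, adjusted p = 0.0194). Adam17, the main sheddase of Hbegf, Areg, Ereg and Tgfa, had means of 410 ± 36.8, 431 ± 34.4 and 476 ± 55.4 (SD, n = 3). Adam10, which sheds Btc and Egf, had means of 2010 ± 89.3, 1934 ± 118 and 2042 ± 257. Their groups overlapped. The log2 difference of cytochalasin D against control furthest from 0 among the tested sheddases was 0.52, of Adam19, with means of 163 ± 45.4 and 239 ± 54.3 (SD, n = 3; limma, adjusted p = 0.744). Of 5 matrix proteases 1, Mmp14, was above the level and 0 were called. Of 14 measured adaptors and members of the ERK cascade 14 were above it and 0 were called in limma without the block. In cytochalasin D against control 2 had an unadjusted p under 0.05, a share near the 10.2% of all probe sets. The 2 were Sos2, which was higher, and Pik3r1, which was lower. With the replicate block Sos2 was called (log2 difference 0.75; limma, adjusted p = 0.0278) and Pik3r1 was not.

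Among 15 inhibitors of ErbB signalling, all tested, 2 rose and 1 fell after cytochalasin D against control, where 1.57% of all probe sets were called. The median log2 difference of the list was -0.01. At an unadjusted p under 0.05, 6 of the 15 passed, beside 10.2% of all probe sets. Errfi1 and Dusp5 were higher, and Socs5, Spry1, Lrig1 and Lrig3 were lower. With the replicate block Spry1 was called as well (log2 difference -0.92; limma, adjusted p = 0.0211), where 3.87% of all probe sets were. Lrig1 and Lrig3 were not called with the block. Errfi1, which encodes the ErbB inhibitor MIG6, had intensities of 1682, 2211 and 2125 in controls 1, 3 and 7, then 8249, 10342 and 11630 with cytochalasin D, and 3759, 5302 and 4938 in the double-drug group. The 3 groups did not overlap. Errfi1 rose by 2.31 on the log2 scale (SE 0.19; limma, adjusted p = 0.00261). In the double-drug group the difference from control was 1.21 (adjusted p = 0.112, or 0.0106 with the replicate block). Cytochalasin D alone against the double-drug group gave 1.11 (adjusted p = 0.136, or 0.0175 with the block). These values are of the brighter of 2 Errfi1 probe sets. The dimmer was called in all 3 comparisons in limma, at 2.85 for cytochalasin D against control (adjusted p = 0.000923), 1.42 for the double-drug group against control (adjusted p = 0.0393) and 1.43 for cytochalasin D against the double-drug group (adjusted p = 0.0310). The call in the double-drug group against control was lost without any 1 of the 9 arrays (adjusted p 0.0513 to 0.176). The call between the drug groups was lost without control replicate 3, cytochalasin D replicate 3 or 7, or any 1 double-drug array (adjusted p 0.0881 to 0.136).

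Dusp5, a nuclear phosphatase of ERK, had means of 98.3 ± 22.8, 804 ± 60.1 and 311 ± 43.3 (SD, n = 3) and rose by 2.86 after cytochalasin D (limma, adjusted p = 0.000923). The double-drug group against control gave 1.52 (adjusted p = 0.0393, or 0.0623 with the replicate block). Cytochalasin D against the double-drug group gave 1.33 (adjusted p = 0.0384, or 0.0871 with the block). Socs5, which promotes degradation of the EGF receptor, had means of 1402 ± 64.9, 948 ± 23.9 and 1197 ± 15.1 (SD, n = 3) and fell by 0.56 after cytochalasin D (limma, adjusted p = 0.00138). It was also lower with cytochalasin D alone than in the double-drug group, at -0.33 (adjusted p = 0.0336). The other of the 2 tested Socs5 probe sets was not called. Without any 1 array other than control replicate 1, both Dusp5 calls that involve the double-drug group were lost (adjusted p 0.0817 to 0.176 against control and 0.0644 to 0.194 against cytochalasin D). The Socs5 call between the drug groups was lost without any 1 array other than control replicates 1 and 7 (0.0850 to 0.158). That call was also lost with no filter (0.0730), a filter at the 60th percentile (0.103), an intensity trend in the prior (0.0663) and only the 6 arrays compared (0.0597). Both Dusp5 calls that involve the double-drug group were also lost with no filter (0.0856 against control and 0.0850 against cytochalasin D).

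**Figure D5:**
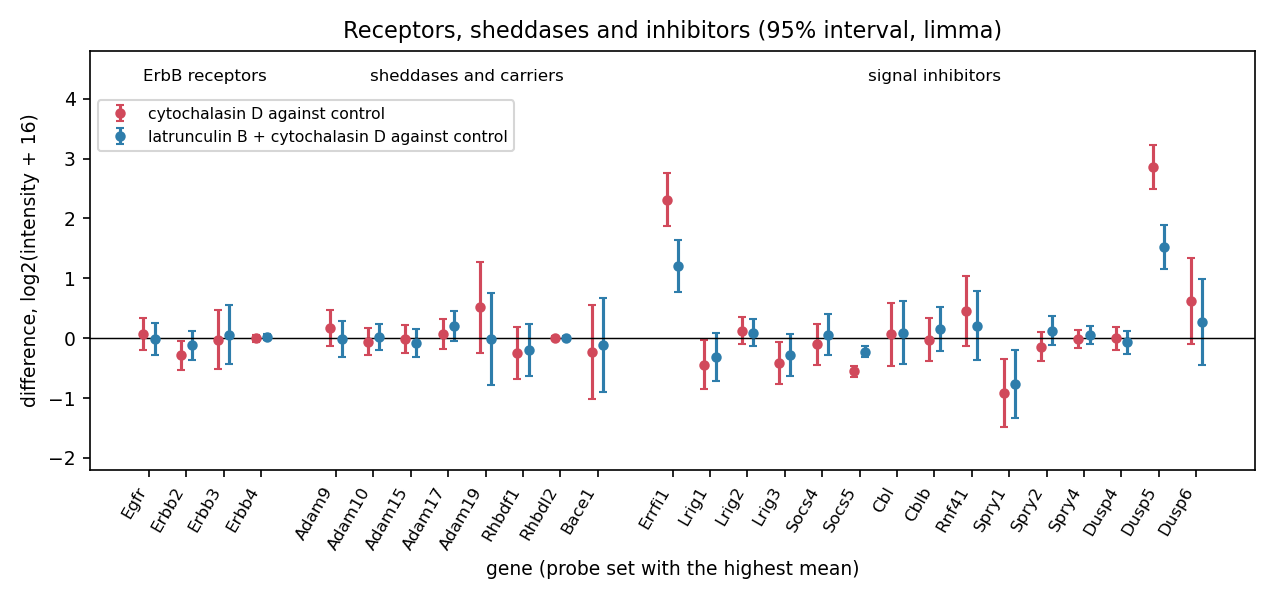
Difference from control on the log2(intensity + 16) scale for tested ErbB receptors, sheddases with their carriers, and inhibitors of ErbB signalling, 1 probe set per gene, with points for the limma estimate and bars for its 95% interval. Errfi1 at 2.31 and Dusp5 at 2.86 stand above the other genes after cytochalasin D, and the intervals of all sheddases include 0, Adam19 at 0.52 among them.

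For reference, 19 of 20 MRTF-SRF target genes rose after cytochalasin D against control, where 1.57% of all probe sets tested were called, and their median log2 difference was 2.01. This list was chosen with earlier results of these data known, so its counts are a description and not a test. In the double-drug group 3 rose against control, or 4 with the replicate block, where 0.111% of all were called, or 0.455% with the block. With cytochalasin D alone 8 were higher than with both drugs, or 5 with the block, where 0.259% of all were called, or 0.367% with the block. With 1 array left out the 3 became 0 to 2, and 0 without control replicate 3, cytochalasin D replicate 1 or 3, or any 1 double-drug array. The 8 became 2 without any 1 double-drug array, 3 or 4 without control replicate 3 or any 1 cytochalasin D array, and 7 or 8 without control replicate 7 or 1. Examples are Cnn1, calponin, at 4.59 ± 0.04, 37.0 ± 3.59 and 5.90 ± 0.48 in control, cytochalasin D and the double-drug group, and Ccn1, a secreted matrix protein, at 2754 ± 295, 11555 ± 1017 and 8950 ± 782 (SD, n = 3). The control and double-drug means of Cnn1 were under the silent-gene level and under the 40th percentile of every array, 6.16 to 6.35. The filter on dim values keeps such a probe set because it is high in 1 group. Actg2, Csrp1, Acta1 and Itga5 complete the 6 with the smallest adjusted p, and all rose after cytochalasin D, by 1.66 to 5.00. Ccn1 and Itga5 were each called in that comparison on 2 of their 4 tested probe sets. Of 21 immediate-early genes 9 rose after cytochalasin D, with a median log2 difference of 1.30, and the shares of all probe sets given above apply to this list too. The 9 became 6 to 9 with 1 array left out. Genes newly called higher with the replicate block included Fos, Jun, Egr1, Atf3, Nr4a1 and Maff, where 3.87% of all probe sets were called. In the double-drug group 4 rose against control, or 7 with the block, and 0 were called between the drug groups in limma, or 1, Zfp36, with the block. The 4 became 0 without control replicate 3, cytochalasin D replicate 1 or 3, or any 1 double-drug array, and 1, 2 and 3 without control replicate 7, control replicate 1 and cytochalasin D replicate 7. The 0 became 1 without control replicate 1. Zfp36, Ier2, Junb, Ier5, Klf6 and Fosl1 had the smallest adjusted p of these, and all rose after cytochalasin D, by 0.84 to 2.59. Klf6 was called in that comparison on 1 of its 5 tested probe sets and Ier5 on 2 of 3.

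As a check of the cells, 12 of 12 fibroblast markers were above the silent-gene level, and the sum of their intensities lay between 108377 and 117463 on the 9 arrays. Endothelial markers were above it in 0 of 6. Of 8 epithelial markers 1, Krt14, was above the level, and their summed intensity was 144 to 211 in controls, 132 to 235 with cytochalasin D and 143 to 179 in the double-drug group. Of 8 measured macrophage or leukocyte markers 2, Cd14 and Csf1r, were above it, with sums of 243 to 293, 214 to 243 and 226 to 274. Of neuron or glia markers only Syn1 was above the level, a gene that is also among those that set it, and of skeletal muscle markers only Acta1, an MRTF-SRF target counted above. Apart from Acta1 no marker was called in limma, and their part in the ligand values was not tested.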

How the data were processed

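RNA of 9 arrays was read as intensity on a linear scale, 1 value per probe set, as deposited after the authors' normalization. MAS5 and GCRMA stand in the submitters' processing notes, with no word on which made the values. The pseudocount of 16 was added before log2. Tests took probe sets above their array's 40th percentile on 3 or more arrays, which left 27010, without the 64 control probe sets. The test was limma 3.58.1 (lmFit and eBayes, R 4.3.3) on all 9 arrays with 1 coefficient per group, two-sided, Benjamini-Hochberg adjusted over all probe sets tested, with calls at an adjusted p under 0.05. It was tested on simulated data. The number of arrays limits the precision.

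Gene names come from the platform annotation, with symbols updated through RefSeq: 34945 probe sets have 1 symbol, 932 several and 9160 none. Other genes are shown on their probe set with the highest mean, and on the other lists the genes named with values are those called in a comparison, at most 6 per list by adjusted p, besides receptors, sheddases and neighbours chosen for the pathway after their values were seen. Rhbdf1, Sos2, Spry1 and further immediate-early genes are named for calls with the replicate block, after those calls were seen. For each ligand that was called, the 3 genes most like it are named. The ligands and lists were chosen with earlier results of these data known.

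Replicate numbers are shared between groups. Deviations from the group mean of same-numbered arrays correlated at 0.41 to 0.83 for the double-drug group and control and at 0.41 to 0.76 for the drug groups, so the numbers were taken to pair those arrays. This pairing comes from the data, not the labels. Alternatives changed the pseudocount, filter, normalization, prior, arrays fitted and replicate block, and left out each array.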

Additional observations from a re-analysis of the deposited data

How the results depend on the processing

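Ereg was called in cytochalasin D against control under all 17 alternatives, with a log2 difference of 1.55 to 1.81. The count of called ligand probe sets in that comparison, 1, was 2 with the filter at the 60th percentile, 2 with an intensity trend in the prior and 3 with the replicate block, and 1 to 2 with each array left out, the 2 without control replicate 1. Same-numbered arrays of these groups correlated in their deviations at 0.71, 0.08 and 0.65 for numbers 1, 3 and 7. The threshold for pairing was 0.1, so number 3 alone kept this comparison from being taken as paired. Numbers that pair the double-drug arrays with both other groups would pair these 2 groups as well, so the rule does not settle the pairing here. With the block, Hbegf gave adjusted p values of 0.00796 for the brighter and 0.0274 for the dimmer probe set, and 1044 of all probe sets were called in place of 423. In cytochalasin D against the double-drug group the count of 0 became 1, Ereg, with the filter at the 60th percentile and with the block. In the double-drug group against control it was 0 throughout. The block changed no other call of a ligand. Expressed ligand probe sets numbered 3 by the silent-gene level and 5 by the 40th percentile or by the median of the array.

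With an array left out, the sign of small differences turned. The dimmer Hbegf probe set in the double-drug group against control ranged from -0.099 (without double-drug replicate 1) to 0.542. Btc ranged from -0.040 to 0.001 after cytochalasin D and from -0.027 to 0.013 in the double-drug group, with the highest values without control replicate 1. Nrg1 ranged from -0.091 to 0.117 and from -0.043 to 0.165, lowest without control replicate 7, and was -0.017 after cytochalasin D without cytochalasin D replicate 3. Of 252 ligand results under alternatives, 239 kept direction and side of the threshold, 7 passed it newly and 6 changed sign. Btc was not tested at the 60th percentile.

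Counts over all probe sets moved more. Cytochalasin D against control gave 423 calls, 159 with only its 6 arrays, and 231 to 487 with an array left out. The double-drug group against control gave 30, then 74 at the 60th percentile, 48 with the trend, 14 with a pseudocount of 64, 15 with quantile normalization, 8 with no filter, 1 on its 6 arrays, 123 with the block and 0 to 42 with an array left out. Cytochalasin D against the double-drug group gave 70, then 16 with no filter, 9 on its 6 arrays and 3 to 59 with an array left out. Dusp5 in the double-drug group against control had its highest adjusted p, 0.198, with only the 6 arrays compared.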
